A study of Mus musculus with 54 samples.

Results

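Sun1, Sun2, Syne1, Syne2 and Syne3 encode the SUN proteins and nesprins of the LINC complex, the linker of nucleoskeleton and cytoskeleton. They were taken by their NCBI gene numbers from the 27 deposited tables, and all 5 of the 19653 listed genes were present in every table. SUN proteins span the inner nuclear membrane, bind lamins on the inside, and hold the KASH domains of nesprins in the space between both nuclear membranes. Nesprins span the outer membrane and reach actin, motor proteins or, through plectin, intermediate filaments. In muscle the complex anchors and spaces the nuclei of the multinucleated fibre, and emerin, the inner membrane protein lost in X-linked Emery-Dreifuss muscular dystrophy, binds its members.

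RNA was sequenced from H2K mouse myogenic progenitors, cells of mice that carry a conditional immortalizing gene, at the start of and during differentiation in 5% horse serum. The day 0 cells came from proliferative medium, which held fetal bovine serum and γ-interferon and was used at a lower temperature. The step from day 0 to day 1 therefore also spans this change of medium and temperature, which cannot be told apart from differentiation. The 6 lines were wildtype, EMD-null (EMD−/y, no emerin), and EMD-null cells transduced by lentivirus with wildtype emerin (+EMD) or with the disease-causing emerin forms S54F, del95-99 and Q133H. Each line was taken at day 0 (0 h), day 1 (24 h) and day 2 (48 h), which gave 18 groups of 3 libraries. The transduced lines were selected in puromycin, at doses that differed between +EMD, Q133H and the other lines. The emerin mutant lines were plated at a higher density than wildtype and EMD-null, and the density of +EMD is not stated. Virus, selection and density therefore cannot be told apart from the emerin form when a transduced line is set against wildtype or EMD-null. S54F and del95-99 shared dose and density. A line carrying the vector alone was not analysed here. The 54 libraries held between 17086515 and 20215349 counted reads. The sources describe 3 technical replicates for each of 2 biological replicates, so the 3 libraries of a group may be technical, and p-values measure only the spread between these libraries. Levels are normalised read counts, the reads of a gene divided by the size factor of its library.

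Emd, the targeted gene (chrX:74254687-74261548, + strand, mm10), was counted first to check the labels. The wildtype libraries held 1887, 1889 and 2034 Emd reads at day 0. They held 1913, 1743 and 1537 at day 1, and 1100, 983 and 987 at day 2. No library of the EMD-null line or of any transduced line held more than 3 Emd reads, and at day 1 and day 2 the 6 EMD-null libraries held 0. The loss of the gene's transcript was thus seen in all 45 libraries of the EMD-null line and of the lines made from it. This sets wildtype apart from the rest, but it cannot check the labels of the other lines against each other. The mouse Emd count did not register the transduced emerin, whose level in these libraries cannot be read from it.

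Muscle identity was checked in the same libraries. Of the progenitor markers Myod1, Myf5, Pax7, Des and Cdh15, Des was the most abundant in most groups. Pax7 was near 0 in Q133H, with 1, 4 and 2 reads at day 0, 10, 3 and 6 at day 1, and 9, 4 and 13 at day 2. In the EMD-null parent line its day 0 libraries held 985, 725 and 983 reads. The summed progenitor markers rose over the days in wildtype. They were 32667 ± 1040 (SD, n = 3) normalised counts at day 0, 57198 ± 2998 at day 1 and 103316 ± 3773 at day 2. At day 0 the sum was 27086 ± 2980 in Q133H and 28379 ± 1834 in del95-99. At day 1 it was 19143 ± 5645 in Q133H and 32427 ± 6901 in del95-99. In the other lines the day 1 mean was 55000 in EMD-null, 53245 in +EMD and 52479 in S54F. The part of these differences in the results of Q133H and del95-99 was not tested. Of the other cell types, Adipoq and Plin1 (adipocytes) were each at 0 in 48 of 54 libraries. Ptprc was at 0 in 35 libraries and Adgre1 in 51 (blood cells). The endothelial genes Pecam1 and Cdh5 reached at most 17 and 12 reads, and the fibroblast genes Dpt and Pdgfra at most 25 and 83. The adipocyte and blood cell markers were thus at or near 0. Pdgfra had reads in all libraries, at 5.10 to 78.1 normalised counts. Its mean was highest in Q133H at day 2, at 71.0 against 32.8 in wildtype at day 2. The sum of Pdgfra and Dpt at day 2 was 73 in Q133H and 47 in wildtype, so Dpt was lower in Q133H. The part of these genes in the Q133H results was not tested.

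The differentiated muscle markers Myog, Myh3, Ckm, Acta1 and Tnnt3 differed between days and between some lines. Their summed normalised counts in wildtype were 34265 ± 14078 (SD, n = 3) at day 0, 182200 ± 35339 at day 1 and 698827 ± 83644 at day 2. The EMD-null mean was above that spread at day 0, at 62300 ± 43037. It was within the spread at the later days, at 182704 ± 42016 at day 1 and 693139 ± 128748 at day 2. S54F reached 114681 ± 6536 at day 1 and 591871 ± 52876 at day 2. The other transduced lines had lower sums. At day 1 the sum was 68076 ± 6428 in +EMD, 20622 ± 5008 in del95-99 and 7940 ± 1084 in Q133H. At day 2 it was 439398 ± 36926 in +EMD, 287248 ± 40637 in del95-99 and 93719 ± 95972 in Q133H.

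Single libraries stood apart on this sum. Q133H day 2 library 2 held 204404, against 43084 and 33669 in the other Q133H day 2 libraries. EMD-null day 0 library 2 held 111992 against 37900 and 37007, and Q133H day 0 library 3 held 61577 against 7805 and 8131. Calls that change without these libraries are given with both values. In each of these groups the remaining libraries were the closest pair. Their median chi-square ratio was 2.53 in Q133H at day 2, against 20.2 and 23 for the other pairs. It was 2.36 against 10.1 and 10 in EMD-null at day 0, and 1.8 against 9.67 and 9.37 in Q133H at day 0. The library left out may thus be the only one of its biological replicate. Without it, SE and p may measure technical spread alone in that group. In bulk RNA, fewer differentiated cells and less RNA per cell cannot be told apart.

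Per kilobase of its longest transcript, Sun1 was the most abundant of the 5 genes in all 18 groups, and Syne2 the least in every group but +EMD at day 0. In wildtype at day 1, the level per kilobase was 892 for Sun1, 324 for Syne3, 275 for Sun2, 132 for Syne1 and 17.3 for Syne2. The Sun1 to Sun2 ratio per kilobase in wildtype was 1.08 ± 0.208 (SD, n = 3) at day 0, 3.25 ± 0.34 at day 1 and 5.42 ± 0.351 at day 2. The balance of the SUN genes thus moved toward Sun1 as wildtype cells differentiated. The Syne1 to Syne2 ratio per kilobase went from 1.76 ± 0.271 at day 0 to 7.7 ± 0.938 at day 1 and 39.8 ± 10.8 at day 2. Among nesprins, Syne2 lost ground to Syne1 on both days. The order between genes depends on the length used, since several members have short and giant transcripts. With the shortest protein-coding transcript the wildtype day 1 levels per kilobase were 9528 for Sun1, 3484 for Sun2, 1352 for Syne1, 853 for Syne2 and 508 for Syne3. The place of Sun1 above Sun2 at day 0 also depends on it, since with that length Sun2 was the higher in wildtype (6402 against 5715), del95-99 (5182 against 5112) and Q133H (5538 against 5454). With the mean deposited length Sun2 was the higher in wildtype at day 0, at 597 against 541. With that length Syne1 ranked next to Sun1 in wildtype at day 1, at 610 per kilobase, and Syne2 was at 16.9. The size of the Syne1 to Syne2 ratio thus depends on the length, but its rise over the days does not.

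**Figure D1:**
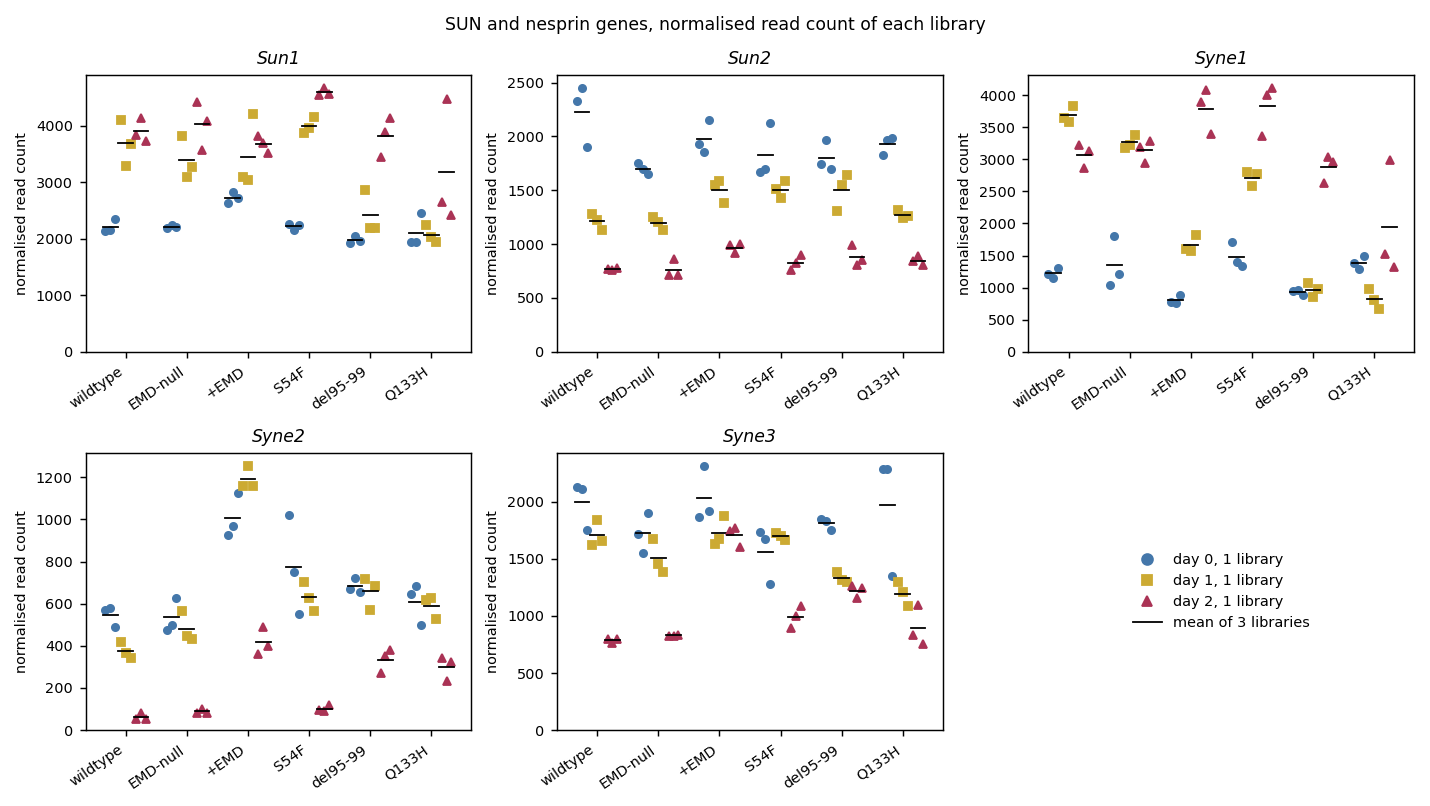
Normalised read count (vertical axes, linear from 0) of the 5 genes in each of the 54 libraries, by line, with colour and symbol for the day and a black bar for the mean of 3 libraries. In wildtype, Sun2, Syne2 and Syne3 were lowest at day 2, and the day 1 Syne1 libraries of del95-99 and Q133H lay between 667 and 1067, below all day 1 wildtype libraries.

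Changes were tested with limma on all 14727 genes with at least 10 reads in at least 3 libraries, a filter that all 5 genes passed. A change was called at a Benjamini-Hochberg adjusted p under 0.05 over all these genes and at least 2-fold. The study compared each line with wildtype on the same day to find what emerin loss or mutation alters. Of the 75 values of the 5 genes against wildtype, 8 were called, against 15.6% of all gene values in the same 15 comparisons. Of the 8 calls, 5 were higher (7.71% of all values were called higher) and 3 lower (7.88%). The calls were Syne1 lower at day 1 in +EMD, del95-99 and Q133H, Syne2 higher at day 1 in +EMD, Syne2 higher at day 2 in those 3 lines, and Syne3 higher at day 2 in +EMD. By adjusted p alone, 30 of 75 values passed, against 42.4% of all. The called share of the 5 genes was below the background on either rule, so the count itself sets nothing about them apart.

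The calls were uneven between lines. The EMD-null line had 0 of 15 called by limma, with 1 value at an unadjusted p under 0.05 and 0 calls by limma-trend. Over all genes, 7.84% were called in EMD-null cells at day 0, 6.74% at day 1 and 6.74% at day 2. S54F also had 0 of 15 called, with 7 values at an unadjusted p under 0.05 and 0 by limma-trend, beside 11.5%, 11.8% and 10.1% of all genes on days 0, 1 and 2. In +EMD, 4 of 15 were called, beside 16.3%, 19.2% and 18% of all genes. In del95-99, 2 of 15 were called, beside 11.6%, 21% and 22.0%, and in Q133H 2 of 15, beside 14.2%, 24.2% and 32.8%. At day 0 no member was called in any of the 5 lines. The median log2 difference of the 5 genes was furthest from that of all genes in Q133H at day 1, at -0.51 against 0.01, and was 0.33 against 0.01 in +EMD at day 2. The 3 lines with calls among the 5 genes also had the larger shares over all genes on each day, and the differences between these counts were not tested.

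**Figure D2:**
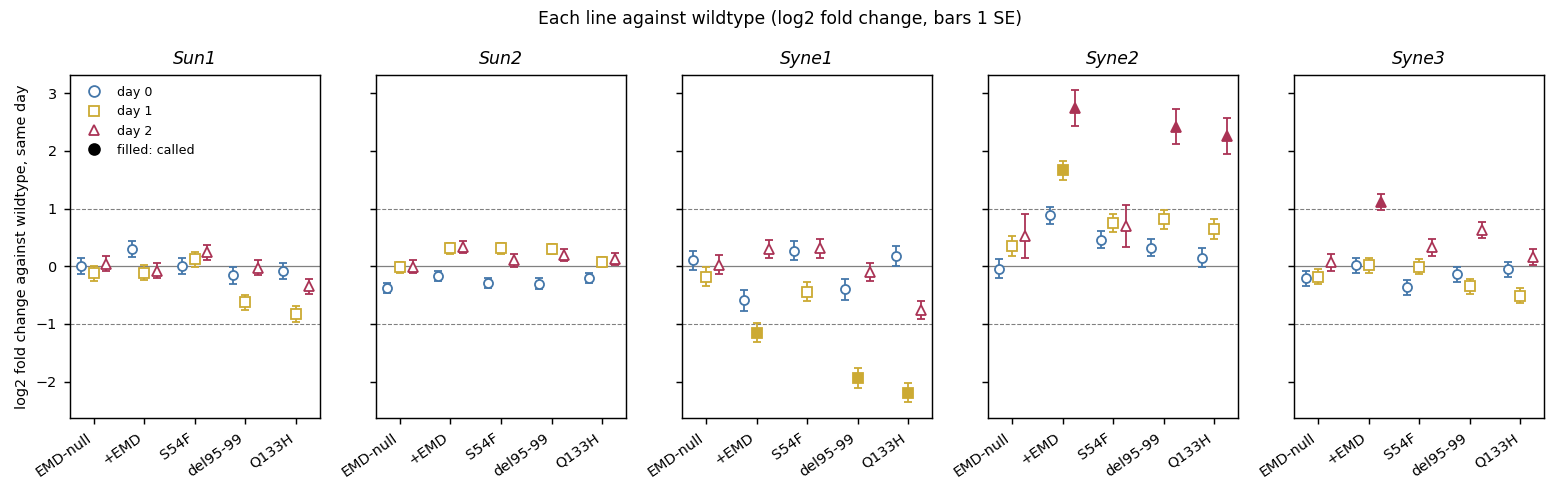
Log2 fold change of each line against wildtype on the same day (vertical axis), with bars of 1 SE, colour and symbol for the day, filled symbols for called changes and dashed lines at 2-fold. The called values are 3 for Syne1 at day 1 (-1.15 to -2.19), 4 for Syne2 (1.66 to 2.74) and 1 for Syne3 (1.11).

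The second question was what each line changes from one day to the next. Of 60 values between consecutive days, 11 were called, against 17.1% of all gene values. Of these, 6 were higher, all in Syne1 (9.09% of all values were called higher), and 5 were lower, 4 in Syne2 and 1 in Syne3 (7.97%). By adjusted p alone 40 of 60 values passed, against 52.8% of all. From day 0 to day 1, the share of all genes called was 22.6% in wildtype, 21.8% in EMD-null, 16.8% in +EMD, 16.3% in S54F, 13.7% in del95-99 and 11.1% in Q133H. The members called on this step were Syne1 in wildtype, EMD-null and +EMD. From day 1 to day 2 the shares were 19.4%, 18.8%, 19.8%, 19.6%, 14.4% and 10.4% in the same order. The members called on the later step were Syne1 in +EMD, del95-99 and Q133H, Syne2 in wildtype, EMD-null, +EMD and S54F, and Syne3 in wildtype.

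Whether a line's step differed from the wildtype step was tested directly as the difference of both log2 fold changes. Of 50 such differences, 9 were called, against 7.27% of all gene values. Of these, 7 were higher (4.43% of all) and 2 lower (2.84%), and by adjusted p alone 21 of 50 passed, against 21.7%. For the step to day 1, the share of all genes called was 0.244% in EMD-null, 7.52% in +EMD, 4.92% in S54F, 10.2% in del95-99 and 16.6% in Q133H. For the step to day 2 it was 0.170%, 7.75%, 1.59%, 9.84% and 13.9%. The calls of the members were 5 in Syne1, 3 in Syne2 and 1 in Syne3. EMD-null had 0 of 10 differences called by limma, with 1 at an unadjusted p under 0.05 and 0 by limma-trend. S54F had 0 of 10, with 3 at an unadjusted p under 0.05 and 0 by limma-trend.

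**Figure D3:**
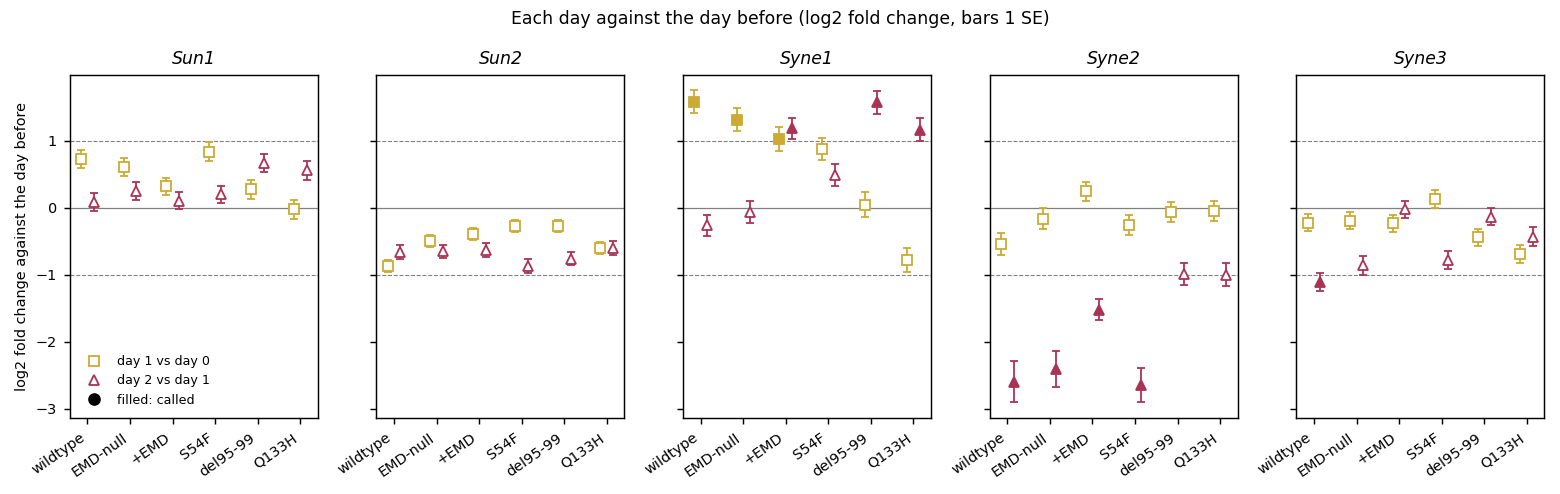
Log2 fold change of each day against the day before (vertical axis) in each line, with bars of 1 SE, filled symbols for called changes and dashed lines at 2-fold. Syne1 was called higher at day 1 in wildtype, EMD-null and +EMD (1.59, 1.32 and 1.03), and at day 2 in +EMD, del95-99 and Q133H (1.19, 1.58 and 1.17).

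Sun1 (gene 77053, chr5:139200637-139249840, + strand, mm10; 20 annotated transcripts, 23 exons in the longest) encodes the SUN protein that also binds nuclear pores and the centrosome-linked machinery of nuclear movement. Its normalised counts in wildtype were 2135, 2155 and 2344 at day 0, 4102, 3285 and 3675 at day 1, and 3838, 4136 and 3726 at day 2. All day 1 libraries lay above all day 0 libraries, and day 1 overlapped day 2. The day 1 level was higher by 0.73 ± 0.14 (SE) on the log2 scale (limma adjusted p = 1.4e-05), under the 2-fold needed for a call. Sun1 was higher at an adjusted p under 0.05 in 6 of 12 steps and lower in none, against 52.8% of all gene values in either direction. Of these steps 0 of 12 were called (7 at an unadjusted p under 0.05, 0 by limma-trend). In del95-99 the larger step was the later one. The log2 change in del95-99 was 0.28 ± 0.14 to day 1 and 0.67 ± 0.13 to day 2 (limma adjusted p = 7.1e-05). In Q133H it was -0.02 ± 0.14 and then 0.56 ± 0.14 (limma adjusted p = 8.7e-04). The later Q133H value rests on day 2 library 2, without which it was 0.29 ± 0.12 (limma adjusted p = 0.051).

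Against wildtype, Sun1 differed at an adjusted p under 0.05 in 3 of 15 comparisons, each of them lower, against 42.4% of all gene values in either direction. None was called by limma (4 at an unadjusted p under 0.05, 0 by limma-trend). At day 1 the del95-99 libraries held 2867, 2186 and 2192 and the Q133H libraries 2244, 2039 and 1943, all below the lowest wildtype library. The log2 difference was -0.62 ± 0.13 in del95-99 (limma adjusted p = 1.7e-04) and -0.83 ± 0.14 in Q133H (limma adjusted p = 1.9e-06). Q133H at day 2 was lower, at a log2 difference of -0.35 ± 0.13 (limma adjusted p = 0.02), with 4482 in library 2 against 2649 and 2418 in the other libraries. Without that library the difference was -0.62 ± 0.12 (limma adjusted p = 1.0e-05). The difference in steps from wildtype was -0.75 ± 0.19 for Q133H to day 1 (limma adjusted p = 0.0018). To day 2 it was 0.48 ± 0.19 (limma adjusted p = 0.042), and 0.20 ± 0.16 without library 2 (limma adjusted p = 0.3). For del95-99 to day 2 it was 0.58 ± 0.19 (limma adjusted p = 0.018). Over the 18 groups, Sun1 ran from 1978 ± 60.8 (SD) in del95-99 at day 0 to 4593 ± 69.4 in S54F at day 2, a 2.32-fold range. Of the 17 neighbouring pairs in this order, libraries of 16 overlapped, and the exception was S54F at day 2 above EMD-null at day 2.

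Sun2 (gene 223697, chr15:79724070-79742536, - strand, mm10; 10 transcripts, 16 exons in the longest), the SUN protein most often tied to actin-driven nuclear positioning, ran the other way. Its wildtype counts were 2331, 2452 and 1901 at day 0, 1280, 1227 and 1130 at day 1, and 768, 761 and 777 at day 2, with no overlap between days. The log2 change was -0.87 ± 0.09 to day 1 (limma adjusted p = 3.0e-10) and -0.66 ± 0.10 to day 2 (limma adjusted p = 7.5e-07). Sun2 was lower at an adjusted p under 0.05 in 12 of 12 steps over the 6 lines, against 52.8% of all gene values in either direction. Its log2 changes ran from -0.27 to -0.87, and 0 of 12 reached the 2-fold of a call (0 also by limma-trend). With scaling by total counts, S54F from day 1 to day 2 was called, at -1.18. On either scaling the direction was lower in every line.

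Differences of Sun2 between lines were small. Against wildtype none of 15 was called (8 at an unadjusted p under 0.05, 0 by limma-trend), and the log2 differences lay between -0.38 ± 0.09 in EMD-null at day 0 (limma adjusted p = 0.0017) and 0.33 ± 0.10 in +EMD at day 2 (limma adjusted p = 0.007). The EMD-null day 0 libraries held 1752, 1693 and 1648, all below the lowest wildtype library at 1901. This was the one value of the EMD-null line, among 15, at an adjusted p under 0.05. By step, 3 lines lost less Sun2 to day 1 than wildtype at an adjusted p under 0.05, none of them called. The log2 difference was 0.48 ± 0.13 in +EMD (limma adjusted p = 0.0061) and 0.60 ± 0.13 in both S54F and del95-99 (limma adjusted p = 0.0012 and 5.7e-04). Over the 18 groups the level ran from 764 ± 86.8 in EMD-null at day 2 to 2228 ± 289 in wildtype at day 0, 2.92-fold, and followed the day. All 6 day 0 groups ranked above all day 1 groups, and these above all day 2 groups. Between neighbours in that order, 15 of 17 pairs overlapped, and the exceptions were the steps between days.

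Syne1 (gene 64009, chr10:5020917-5551482, - strand, mm10; 9 transcripts, 146 exons in the longest) encodes nesprin-1, the nesprin that gathers centrosome proteins at the nuclear envelope of muscle cells and anchors nuclei in the fibre. Its wildtype counts were 1215, 1152 and 1299 at day 0, 3648, 3583 and 3823 at day 1, and 3217, 2862 and 3134 at day 2. EMD-null libraries held 1034, 1799 and 1208 at day 0, 3178, 3230 and 3379 at day 1, and 3185, 2939 and 3288 at day 2. Both lines were thus high from day 1 onward. S54F libraries held 1709, 1393 and 1334, then 2797, 2580 and 2763, then 3370, 4002 and 4115, without overlap between days.

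The other lines were low at day 1. The +EMD libraries held 783, 766 and 884 at day 0, 1599, 1574 and 1814 at day 1, and 3893, 4072 and 3387 at day 2. The del95-99 libraries held 946, 956 and 883 at day 0, 1067, 854 and 972 at day 1, and 2637, 3034 and 2953 at day 2. The Q133H libraries held 1386, 1295 and 1486, then 981, 804 and 667, then 1517, 2991 and 1319. At day 1 every library of these 3 lines lay below every wildtype library, and at day 2 those of +EMD lay above the wildtype libraries while del95-99 overlapped them. In Q133H at day 2, library 2 lay within the wildtype range and the other libraries, 1517 and 1319, were near the line's day 0 level.

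Syne1 rose to day 1 in wildtype by a log2 fold change of 1.59 ± 0.17 (limma adjusted p = 1.9e-10). It rose in EMD-null by 1.32 ± 0.17 (limma adjusted p = 1.5e-08), or 1.55 ± 0.17 without EMD-null day 0 library 2, and in +EMD by 1.03 ± 0.18 (limma adjusted p = 5.7e-06). The +EMD value was at 1.00 without +EMD day 0 library 2 and 0.97 without +EMD day 1 library 3, and then not called. In S54F the change was 0.88 ± 0.17 (limma adjusted p = 2.9e-05) and in del95-99 0.05 ± 0.18 (limma adjusted p = 0.84). In Q133H it was -0.78 ± 0.18 (limma adjusted p = 4.6e-04), opposite in sign to wildtype.

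From day 1 to day 2, wildtype and EMD-null changed by -0.26 ± 0.16 and -0.06 ± 0.16 on the log2 scale, neither of them called, and S54F by 0.49 ± 0.16 (limma adjusted p = 0.0089), under 2-fold. Syne1 rose by 1.19 ± 0.16 in +EMD (limma adjusted p = 8.8e-08), 1.58 ± 0.17 in del95-99 (limma adjusted p = 1.2e-09) and 1.17 ± 0.17 in Q133H (limma adjusted p = 9.5e-07). The call of the Q133H rise rests on library 2 of day 2. Without it the log2 change was 0.81 ± 0.14 (limma adjusted p = 2.7e-05), under the 2-fold of a call. For +EMD the change was 0.93 with scaling by total counts, also under 2-fold.

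Against wildtype at day 1, Syne1 was lower, at a log2 difference of -1.15 ± 0.16 in +EMD (limma adjusted p = 1.8e-07), -1.94 ± 0.17 in del95-99 (limma adjusted p = 2.8e-12) and -2.19 ± 0.17 in Q133H (limma adjusted p = 1.1e-13). These are 2.22-fold, 3.83-fold and 4.55-fold lower levels. S54F was at -0.44 ± 0.16 (limma adjusted p = 0.027), and EMD-null, the parent of all transduced lines, at -0.18 ± 0.16 (limma adjusted p = 0.52). At day 2 the only adjusted p under 0.05 was that of Q133H, at -0.76 ± 0.16 (limma adjusted p = 1.0e-04). Without Q133H day 2 library 2 this was -1.12 ± 0.14 (limma adjusted p = 3.7e-09), which would be called. At day 0 the +EMD line was lower, at -0.59 ± 0.18 (limma adjusted p = 0.0058), and was the lowest of the 18 groups with 811 ± 64.0 (SD).

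The same lines were low in differentiated muscle markers at day 1, with sums of 68076 in +EMD, 20622 in del95-99 and 7940 in Q133H against 182200 in wildtype. How far the level of Syne1 follows the degree of differentiation was not tested. Over the 18 groups Syne1 ranged 4.72-fold, up to 3829 ± 401 in S54F at day 2. Libraries of 15 of the 17 neighbouring pairs in the order overlapped, and the breaks lay between wildtype and EMD-null at day 1 and between wildtype at day 0 and del95-99 at day 1.

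Syne2 (gene 319565, chr12:75818134-76110926, + strand, mm10; 17 transcripts, 115 exons in the longest) encodes nesprin-2, the giant nesprin that links nuclei to actin, kinesin and dynein. Its wildtype counts were 569, 579 and 490 at day 0, 418, 364 and 343 at day 1, and 52, 81 and 55 at day 2. EMD-null held 563, 445 and 430 at day 1 and 82, 101 and 84 at day 2, and S54F 704, 628 and 566 and then 96, 89 and 117. In these lines all day 2 libraries lay far below all day 1 libraries. The +EMD libraries held 926, 967 and 1123 at day 0, 1160, 1253 and 1157 at day 1, and 363, 489 and 399 at day 2. The del95-99 libraries held 719, 572 and 683 at day 1 and 273, 350 and 378 at day 2, and those of Q133H 618, 627 and 525 and then 342, 231 and 321. No day 2 library of +EMD, del95-99 or Q133H was as low as any day 2 library of wildtype, EMD-null or S54F.

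Syne2 fell from day 1 to day 2 in wildtype by 2.60 on the log2 scale (SE 0.31, limma adjusted p = 4.3e-09), a change exceeded among the 60 values between days only by that of S54F. It fell by 2.65 in S54F (SE 0.25, limma adjusted p = 2.6e-11), by 2.41 in EMD-null (SE 0.27, limma adjusted p = 1.8e-09) and by 1.52 in +EMD (SE 0.16, limma adjusted p = 2.1e-10). In del95-99 and Q133H the log2 changes were -0.99 ± 0.17 and -1.0 ± 0.17 (limma adjusted p = 5.1e-06 and 9.9e-06), just under 2-fold. Both were called with scaling by total counts, at -1.13 and -1.07, and without Q133H day 2 library 2 the Q133H change was -0.83 ± 0.18. From day 0 to day 1 the only adjusted p under 0.05 was in wildtype, at -0.54 ± 0.17 (limma adjusted p = 0.0057).

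Against wildtype, Syne2 was higher in +EMD on all 3 days, by log2 differences of 0.88 ± 0.15 at day 0 (limma adjusted p = 5.7e-06), 1.66 ± 0.16 at day 1 (limma adjusted p = 1.9e-11) and 2.74 ± 0.31 at day 2 (limma adjusted p = 1.4e-09). The later pair was called, at 3.17-fold and 6.68-fold. At day 2 it was also higher in del95-99 by 2.42 ± 0.31 (limma adjusted p = 2.1e-08) and in Q133H by 2.25 ± 0.31 (limma adjusted p = 4.9e-08), 5.33-fold and 4.76-fold. The EMD-null and S54F differences at day 2 were 0.53 ± 0.38 and 0.70 ± 0.36 (limma adjusted p = 0.37 and 0.15). At day 1, S54F, del95-99 and Q133H were higher by 0.75, 0.81 and 0.65 with adjusted p under 0.05 and under 2-fold. Of 15 Syne2 differences, 9 had an adjusted p under 0.05, against 42.4% of all gene values in either direction. All 9 were toward more Syne2 than in wildtype, and the comparisons of a day share the same wildtype libraries. The 18 groups of Syne2 spanned 19.0-fold, from 63 ± 15.7 (SD) in wildtype at day 2 to 1190 ± 54.6 in +EMD at day 1, the widest range of the 5 genes. Even so, 14 of 17 neighbouring pairs overlapped.

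Syne3 (gene 212073, chr12:104929933-105009809, - strand, mm10; 3 transcripts, 18 exons in the longest) encodes nesprin-3, the nesprin that binds plectin. Its wildtype counts were 2128, 2112 and 1756 at day 0, 1625, 1837 and 1659 at day 1, and 800, 766 and 800 at day 2. EMD-null at day 2 held 828, 827 and 832, and S54F 893, 999 and 1089. The +EMD libraries held 1630, 1674 and 1876 at day 1 and 1743, 1770 and 1603 at day 2. The del95-99 libraries held 1388, 1312 and 1301 and then 1261, 1154 and 1247, and those of Q133H 1294, 1207 and 1086 and then 835, 1095 and 754. Days 1 and 2 overlapped in +EMD and lay close together in del95-99, and in Q133H they overlapped only through day 2 library 2.

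From day 0 to day 1 the log2 change of Syne3 was -0.44 ± 0.13 in del95-99 (limma adjusted p = 0.005), not called. In Q133H it was -0.69 ± 0.13 (limma adjusted p = 4.9e-05), also not called. Without Q133H day 0 library 3 it was -0.94 ± 0.11 (limma adjusted p = 3.2e-08). Syne3 fell from day 1 to day 2 in wildtype by 1.11 on the log2 scale (SE 0.14, limma adjusted p = 1.4e-08). In EMD-null the change was -0.86 ± 0.14 and in S54F -0.78 ± 0.14 (limma adjusted p = 2.5e-06 and 6.3e-06), and both were called with scaling by total counts, at -1.12 and -1.08. In +EMD it was -0.02 ± 0.13 (limma adjusted p = 0.93), with all 3 libraries of either day inside a span from 1603 to 1876. In del95-99 it was -0.13 ± 0.13 (limma adjusted p = 0.45), and in Q133H -0.43 ± 0.14 (limma adjusted p = 0.0095), or -0.59 ± 0.15 without day 2 library 2 (limma adjusted p = 0.0017). Against wildtype at day 2, Syne3 was higher in +EMD by 1.11 ± 0.14 (limma adjusted p = 1.7e-08), 2.16-fold. In del95-99 the difference was 0.63 ± 0.14 (limma adjusted p = 2.3e-04), and in Q133H 0.16 ± 0.14 (limma adjusted p = 0.32), or 0.01 ± 0.15 without that library. At day 1 del95-99 and Q133H were lower, at -0.35 ± 0.13 and -0.51 ± 0.13 (limma adjusted p = 0.02 and 9.3e-04). Its groups spanned 2.58-fold, from 788 ± 19.6 (SD) in wildtype at day 2 to 2033 ± 245 in +EMD at day 0, and 15 of 17 neighbouring pairs overlapped.

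The step differences from wildtype that were called belong to these nesprins. For Syne1 to day 1 they were -1.54 ± 0.24 in del95-99 (limma adjusted p = 9.4e-06) and -2.37 ± 0.24 in Q133H (limma adjusted p = 1.4e-09). For Syne1 to day 2 they were 1.45 ± 0.23 in +EMD (limma adjusted p = 1.6e-05), 1.84 ± 0.23 in del95-99 (limma adjusted p = 3.6e-07) and 1.43 ± 0.24 in Q133H (limma adjusted p = 9.5e-06). The last was 1.07 ± 0.19 without Q133H day 2 library 2 and was still called. In S54F the Syne1 differences were -0.71 ± 0.24 to day 1 and 0.76 ± 0.23 to day 2 (limma adjusted p = 0.03 and 0.042), not called. Both steps of a line share its day 1 libraries, so a low day 1 level enters them with opposite signs. For Syne2 to day 2 the differences were 1.07 ± 0.35 in +EMD (limma adjusted p = 0.021), 1.61 ± 0.35 in del95-99 (limma adjusted p = 6.3e-04) and 1.60 ± 0.35 in Q133H (limma adjusted p = 3.9e-04), so that less of it was lost. The +EMD difference was not called with limma-trend (0.80), with the closest 2 libraries of each group summed (1.08, limma adjusted p = 0.092) or when any 1 of 4 libraries was left out. For Syne3 to day 2 the +EMD difference was 1.10 ± 0.19 (limma adjusted p = 5.4e-05), while that of del95-99, 0.98 ± 0.19 (limma adjusted p = 1.8e-04), fell short of 2-fold. In Q133H the Syne3 difference to day 2 was 0.68 ± 0.20 (limma adjusted p = 0.0052). It was 0.52 ± 0.20 without Q133H day 2 library 2 (limma adjusted p = 0.03). To day 1 it was -0.46 ± 0.18 (limma adjusted p = 0.04), and -0.71 ± 0.15 without Q133H day 0 library 3. None of these Q133H values was called. The comparisons of the 5 lines share the wildtype libraries, so they are not independent of each other.

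Transduction with wildtype emerin was also compared with the EMD-null parent, a comparison chosen after the values above were seen. Of 15 values, 3 were called, against 12.7% of all gene values, and all 3 were higher (4.92% of all were called higher and 7.74% lower). By adjusted p alone 8 of 15 passed, against 43.0%. Over all genes, 11%, 14.5% and 12.5% were called on days 0, 1 and 2. Syne2 was higher in +EMD than in EMD-null by 1.32 ± 0.15 at day 1 (limma adjusted p = 4.5e-09) and 2.21 ± 0.28 at day 2 (limma adjusted p = 3.3e-08). Syne3 was higher at day 2 by 1.04 ± 0.14 (limma adjusted p = 1.4e-07). Syne1 was lower at day 1, at -0.97 ± 0.16 (limma adjusted p = 6.1e-06), and at -1.04 without +EMD day 1 library 3, which would be called. The differentiated muscle marker sum was 182704 in EMD-null and 68076 in +EMD at day 1, and its part in these differences was not tested.

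The remaining SUN and KASH genes were nearly silent. Of 6, only Spag4 passed the filter, at 12.5 to 30.8 normalised counts per group. Sun3 and Sun5, SUN genes of the testis, reached at most 1 read in any library, Irag2 at most 3, Kash5, the meiotic KASH gene, at most 8, and Syne4 at most 12. Spag4 was lower in S54F at day 1, at a log2 difference of -1.21 ± 0.30 (limma adjusted p = 0.0013), from 24, 32 and 32 reads in wildtype to 16, 22 and 7. This was the 1 call among its 15 values against wildtype (6.67%, against 15.6% of all gene values).

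Partner genes of the complex were counted by list. Of the nuclear envelope partners (Emd, Lmna, Lmnb1, Lmnb2, Tmem43, Tmem201, Tor1a, Tor1b, Tor1aip1 and Tor1aip2), 21 of 150 values against wildtype were called, and 15 of these were Emd itself. Without Emd, 6 of 135 were called (4.44%, against 15.6% of all gene values), and they were in the lamins. Lmnb1, which encodes lamin B1, was higher in +EMD by 1.80 ± 0.14 at day 1 and 2.52 ± 0.18 at day 2 (limma adjusted p = 2.0e-13 and 2.0e-14), and in del95-99 by 1.16 ± 0.15 and 1.71 ± 0.19 (limma adjusted p = 1.3e-08 and 6.4e-10). Its wildtype counts were 2258, 2229 and 2022 at day 0, 1387, 1118 and 914 at day 1, and 272, 372 and 286 at day 2. It was lower from day 1 to day 2 in all 6 lines. These were the 6 calls of the list without Emd among 108 values between days, 5.56% against 17.1% of all gene values. Lmnb2 was lower in Q133H, at -1.70 ± 0.14 at day 1 and -2.09 ± 0.15 at day 2 (limma adjusted p = 5.9e-13 and 3.4e-15). Of the differences in step, 2 of 90 were called without Emd (2.22%, against 7.27% of all gene values). They were Lmnb1 in +EMD at 1.30 ± 0.20 and Lmnb2 in Q133H at -1.16 ± 0.20, both to day 1. Between +EMD and EMD-null, 3 of 27 were called without Emd, all higher in +EMD (11.1%, against 12.7%). They were Lmnb1 at 1.30 ± 0.14 at day 1 and 2.02 ± 0.17 at day 2, and Lmnb2 at 1.10 ± 0.14 at day 2. Lmna, which encodes lamins A and C, was never called, and its differences from wildtype at day 2 were -0.52 ± 0.09 in +EMD, -0.29 ± 0.09 in del95-99 and -0.27 ± 0.09 in Q133H. At day 1 the Lmna differences were -0.32 ± 0.09 in +EMD, 0.02 ± 0.09 in del95-99 and 0.02 ± 0.09 in Q133H.

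Of the cytoplasmic partners (Plec, Fhod1, Kif5b, Klc1, Klc2, Dync1h1, Bicd2 and Pafah1b1), 11 of 120 values against wildtype were called, 3 higher and 8 lower (9.17%, against 15.6% of all gene values). The 3 higher ones were Fhod1, a formin that binds nesprin-2, from 1.03 ± 0.12 in +EMD at day 1 to 1.28 ± 0.14 in del95-99 at day 2. Bicd2, an adaptor of dynein, was lower at day 1, at -1.30 ± 0.15 in +EMD, -1.32 ± 0.15 in del95-99 and -1.86 ± 0.15 in Q133H (limma adjusted p = 2.9e-09, 2.2e-09 and 3.8e-13). In Q133H it was also lower at day 2, at -1.20 ± 0.15. These lines were low in Syne1 and in differentiated muscle markers at day 1, and the part of differentiation in the partner values was not tested. The kinesin genes Kif5b, Klc1 and Klc2 were lower in Q133H at day 2, at log2 differences of -1.23 ± 0.12, -1.5 ± 0.09 and -1.68 ± 0.13. Klc2 was also lower in del95-99, at -1.40 ± 0.12. Without Q133H day 2 library 2 the day 2 values of Kif5b, Klc1 and Klc2 in Q133H were -1.47, -1.64 and -1.95. That of Bicd2 was -1.51 and that of Lmnb2 -2.22. Between days 6 of 96 values were called, 5 higher and 1 lower (6.25% against 17.1%). The higher ones were Bicd2 to day 1 in wildtype (1.40) and EMD-null (1.26), and Klc2 to day 2 in wildtype (1.71), EMD-null (1.46) and S54F (1.46). The lower one was Fhod1 to day 2 in +EMD (-1.33). Of the differences in step, 5 of 80 were called, all lower (6.25% against 7.27%). Plec, the partner of nesprin-3, was not called, and its largest difference from wildtype was -0.96 ± 0.13 in Q133H at day 2. Without Q133H day 2 library 2 it was -1.17 ± 0.13 (limma adjusted p = 1.3e-10), which would be called.

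Of the centrosome proteins that nesprin-1 holds at the muscle nucleus (Akap9, Pcm1, Pcnt and Cdk5rap2), 0 of 60 values against wildtype were called by limma, with 34 at an unadjusted p under 0.05, against 15.6% of all gene values called. Between days, 3 of 48 were called (6.25% against 17.1%). Akap9 was higher from day 1 to day 2 in +EMD by 1.10 ± 0.16 and in del95-99 by 1.27 ± 0.16, and Pcnt lower in Q133H at -1.11 ± 0.10 (limma adjusted p = 1.2e-07, 2.0e-08 and 9.7e-12). Of 40 differences in step 3 were called (7.50%, near the 7.27% of all gene values), all in Akap9. They were -1.0 ± 0.23 in del95-99 and -1.17 ± 0.23 in Q133H to day 1, and 1.11 ± 0.22 in del95-99 to day 2. Without EMD-null day 0 library 2, the change to day 1 in EMD-null would be called for Akap9 (1.09 against 0.97) and for the envelope gene Tmem43 (1.05 against 0.97).

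The genes whose group mean log2 levels were most like those of each member were sought among 13558 tested and named genes, by Pearson r over the 18 groups. These groups share lines and days, so r describes the pattern and carries no p. For Sun1 they were Iqsec1 (0.966), Gdf9 (0.955) and Svbp (0.954), and for Sun2 H1f10 (0.979), Ptbp3 (0.971) and Uxs1 (0.970). For Syne1 they were Hipk3 (0.978), Ablim3 (0.965) and Lima1 (0.965). For Syne2 they were Mcm4 (0.983), Arhgap11a (0.983) and Dnmt1 (0.982), and for Syne3 Rrm1 (0.938), Septin10 (0.932) and D17H6S56E-5 (0.929). Within the family the highest r was that of Sun1 and Syne1, at 0.87. Sun2 had 0.86 with Syne3 and 0.81 with Syne2, and Syne2 had 0.83 with Syne3. The SUN genes were opposed, with r of -0.76, as were Syne1 and Syne2, with -0.63. The remaining pairs had r of -0.72 (Sun2 and Syne1), -0.60 (Sun1 and Syne2), -0.48 (Sun1 and Syne3) and -0.39 (Syne1 and Syne3). These values join days and lines, and genes with a high r still differed between lines, as Sun1 (-0.11) and Syne1 (-1.15) did in +EMD at day 1.

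The deposited tables also give a gene length, which differs between groups for genes with several transcripts. Each table holds 1 length for its 2 groups, and its header does not say to which group the length belongs. As assigned here, 99.9% of gene and group pairs had 1 length over all tables. Among named genes with 1 RefSeq transcript, 80.1% of 3635 had the same length in all 17 groups that carry one, against 27.8% of 10846 genes with several. How the length was computed is not given in the sources used here, and each group has 1 value without error, so no test was made. For Syne1 it was 6159 to 8174 bases in the day 0 groups, 5522 to 6690 at day 1 and 5220 to 5629 at day 2, against 27908 bases for its longest annotated transcript. The longest values at day 0 and day 1, 8174 and 6690, were both in Q133H. For Syne3 it moved the other way, from 7508 to 8206 bases at day 0 to 7938 to 9518 at day 1 and 9074 to 9575 at day 2. These values exceed the 5263 bases of the longest Syne3 transcript in GENCODE. Syne2 kept to 22178 to 22238 bases, above its longest GENCODE transcript of 21704, Sun1 to 4040 to 4158, Sun2 to 3611 to 3788, and Emd had 1601 in each group. Lengths of RefSeq transcripts were not compared.

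**Figure D4:**
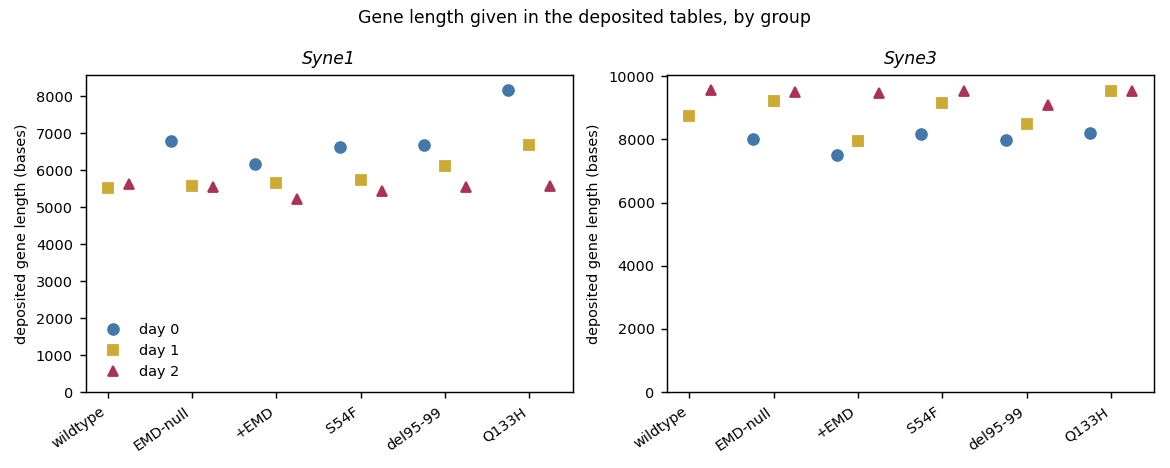
Gene length in bases as the deposited tables give it (vertical axes, linear from 0) for Syne1 and Syne3, by line, with colour and symbol for the day and 1 value per group without error. Syne1 is longest at day 0 in the 5 lines with a day 0 value, up to 8174 bases in Q133H, and Syne3 is shortest there.

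Syne1 is shown with its promoters because its transcripts start at sites far apart and 3 of its differences from wildtype were called at day 1. RefSeq (GRCm38.p6) lists 3 windows of 300 bases, from 250 before to 50 after a start, all on the - strand. They lie at chr10:5550643-5550942, at the 5′ end of the gene, and at chr10:5488265-5488564 and chr10:5069014-5069313, inside it. Capitals mark CANNTG, the E-box motif that myogenic factors such as MyoD can bind, which reads the same on both strands. It occurs 1, 1 and 4 times in these windows.
Syne1 upstream: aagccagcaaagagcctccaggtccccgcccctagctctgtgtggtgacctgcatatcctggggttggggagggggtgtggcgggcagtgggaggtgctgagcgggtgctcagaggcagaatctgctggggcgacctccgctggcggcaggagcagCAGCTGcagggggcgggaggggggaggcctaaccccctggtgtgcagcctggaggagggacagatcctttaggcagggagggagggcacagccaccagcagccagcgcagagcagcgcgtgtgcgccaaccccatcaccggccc
Syne1 middle: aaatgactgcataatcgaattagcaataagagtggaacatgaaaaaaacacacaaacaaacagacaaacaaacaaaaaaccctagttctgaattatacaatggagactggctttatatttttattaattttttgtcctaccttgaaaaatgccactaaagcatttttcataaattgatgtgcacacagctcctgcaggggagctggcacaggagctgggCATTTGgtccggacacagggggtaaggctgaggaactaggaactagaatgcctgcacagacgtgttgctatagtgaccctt
Syne1 downstream: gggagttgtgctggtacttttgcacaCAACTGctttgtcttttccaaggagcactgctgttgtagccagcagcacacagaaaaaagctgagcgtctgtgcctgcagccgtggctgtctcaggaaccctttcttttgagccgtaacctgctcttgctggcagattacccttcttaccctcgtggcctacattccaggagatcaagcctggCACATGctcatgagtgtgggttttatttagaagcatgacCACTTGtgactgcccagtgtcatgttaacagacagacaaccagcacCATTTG
Of 32851 windows of the same kind, 72.3% hold CANNTG and 16.3% hold CAGCTG, a form of it found once in the upstream window and in neither of the others. Among the other members, CANNTG occurs 0 and 4 times in the windows of Sun1, 0 times in that of Sun2, 2 times in that of Syne2 and 1 time in that of Syne3. CAGCTG occurs 1 time in the Syne2 window and in none of the rest. A match is a description of the letters, and binding was not measured.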

How the data were processed

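Poly-A RNA of 54 libraries was sequenced, aligned to mm10 with HISAT2 and compared in 27 tables by the authors' sequencing provider with DESeq2. The deposited tables give a value for each of the 2 groups compared, recorded here with the unit signal, and a gene length, recorded with the unit other. They also hold the authors' fold changes, p-values and calls, which were not used. The 2 deposited group values add up to the summed size-factor normalised counts of their 6 libraries divided by 3. They split that sum by the table's fold change, so they are not group means, as the design had assumed. From the sums of all 27 tables, the whole read counts of the 54 libraries were solved as integers (lattice reduction) for all 19653 genes. The size factors recomputed from these counts by median of ratios were the same to 5.6e-15. The 58238 gene and table pairs that are left out of a table all had 0 reads. Replicate numbers are not recoverable, so libraries are numbered by descending total count and no replicate block was possible.

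Counts were fitted with limma 3.58.1 (voom weights, empirical Bayes, 36 residual degrees of freedom, R 4.3.3) on all 54 libraries in 18 groups of line and day, scaled by size factors. Genes needed at least 10 reads in at least 3 libraries, which left 14727. The fit was tested on simulated data. Library totals were 17086515 to 20215349 reads, with a median of 18714208, so a gene at 10 reads is known only coarsely and the members, at 52 or more normalised counts, are limited by the spread between libraries. Values are estimates ± SE for log2 changes and mean ± SD for levels. The comparisons were each line with wildtype by day, each day with the day before, the difference of those steps from wildtype, and +EMD with EMD-null. Alternatives were scaling by total counts, no filter, limma-trend, leaving out predicted genes, each library left out in turn, other thresholds, a fit of the compared groups alone, and summing the closest 2 libraries of a group. Partner genes were also fitted without each of the 3 libraries that stood apart, an alternative chosen after seeing the data. Within groups 1 pair of libraries was closer than the rest, with a median chi-square ratio of 1.56 to 3.58 against 3.48 to 23.0 for the other pairs.

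Genes were matched by NCBI gene number, 17824 of 19653 by name. Named genes are the 5 members in every group, Emd, lists of partners by their counts with the largest and smallest passing changes, the 3 most alike genes of each member, and cell type markers. Lmna, Plec, and Lmnb1 counts by library were named beyond that rule, after their values were seen. Members and lists were chosen with earlier results of these data known. Gene models are GENCODE M21 and promoter windows RefSeq GRCm38.p6, and minimap2 2.31-r1302 found 0 near-identical copies of a member (97% over 200 bases). Tables and figures used Python 3.11.15, numpy 2.4.6, pandas 2.3.3 and matplotlib 3.10.9. The strand use of the counting is not stated.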

Additional observations from a re-analysis of the deposited data

Results flagged for a closer look

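For 9 values the change between days in a line differed from that of wildtype by the test of the difference itself. For Syne1 to day 1 the difference was -1.54 in del95-99 and -2.37 in Q133H, where wildtype changed by 1.59 on the log2 scale. For Syne1 to day 2 it was 1.45 in +EMD, 1.84 in del95-99 and 1.43 in Q133H, where wildtype changed by -0.26. For Syne2 to day 2 it was 1.07 in +EMD, 1.61 in del95-99 and 1.60 in Q133H, where wildtype changed by -2.60. The +EMD value was not called with limma-trend, at 0.80, or when any 1 of 4 libraries was left out. For Syne3 to day 2 it was 1.10 in +EMD, where wildtype changed by -1.11.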

How the results depend on the processing

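No paired analysis was possible because the deposited tables carry no replicate number for a library. With no fold threshold the calls of the 5 genes were 30 against wildtype, 40 between days, 21 in differences of steps and 8 for +EMD against EMD-null, since fewer conditions have to be met. Under the other settings each count stayed within 1.5 times its value. Scaling by total counts gave 8, 15, 10 and 3, and limma-trend 8, 11, 8 and 3. Summing the closest 2 libraries of each group, chosen after seeing the data, gave 8, 13, 8 and 3. With 1 library left out in turn the ranges were 8 to 9, 10 to 12, 8 to 10 and 3 to 4. No direction of a called value was reversed in these settings.

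The call lost in the most settings was the Syne2 step difference of +EMD to day 2, at 1.07. It was 0.80 with limma-trend and 1.08 with the closest 2 libraries summed (limma adjusted p = 0.092). It was 0.95 without +EMD day 2 library 2, 0.99 without wildtype day 1 library 1, and 0.96 and 1.00 without wildtype day 2 libraries 1 and 3, each not called. Its adjusted p ranged up to 0.092 over these settings and was 0.021 in the fit reported, above 0.01. The Syne1 change of Q133H to day 2 was 1.12 with a fit of its groups alone (limma adjusted p = 0.058). For the Syne3 step difference of del95-99 to day 2, 0.98, a call was made at 1.07 with total counts. It was also made at 1.01 and 1.02 without del95-99 day 1 library 1 and day 2 library 2, and at 1.02 and 1.00 without wildtype day 1 libraries 1 and 3. The Syne2 changes of del95-99 and Q133H to day 2 were called at -1.04 each with the closest 2 libraries summed. They were also called without del95-99 day 1 library 2 (-1.08) or day 2 libraries 2 or 3 (-1.03 and -1.08), and without Q133H day 1 library 3 (-1.08) or day 2 libraries 1 or 3 (-1.11 and -1.06). Syne2 of +EMD against EMD-null at day 0 was called at 1.03 without EMD-null day 0 library 3. Scaling by total counts moved all genes by up to -0.31 (S54F to day 2) and 0.24 (Q133H against wildtype at day 2). The causes of these differences were not tested.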
